A study of Homo sapiens with 3 samples.

Results

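Expression was described for the 7 genes that encode, escort, hold and cut the sterol regulatory element-binding proteins (SREBPs) in human melanoma cells, namely SREBF1 and SREBF2, SCAP, INSIG1 and INSIG2, and MBTPS1 and MBTPS2. They were taken by gene symbol from 20344 genes in the deposited expression files, and all 7 symbols were found. The list was chosen by function, but it was chosen with the difference in FPKM between these libraries already known, so every value below is a description and none is tested. RNA was measured in A375 cells, an established human melanoma line with mutant BRAF. Files of 2 of the series' 3 samples were used, each holding 1 library. One is titled A375, Prop and is called the A375 library here. The other is titled A375-VR, Prop and is called the A375-VR library. The remaining sample, titled A375-VR, DMSO, is not analysed here. The labels do not spell out VR or Prop; the series title speaks of vemurafenib, an inhibitor of mutant BRAF, and of propranolol, which blocks beta-adrenergic receptors. The extraction protocol names only A375-VR cells, given the vehicle DMSO or propranolol at 20 µM for 24 h, and so disagrees with what the A375 library's title and cell line label say. Both libraries used are titled Prop, so by their titles they share this treatment. Cell line, culture with any drug the titles do not name, and library preparation cannot be told apart in the comparison. A bulk RNA level also cannot tell more cells that express a gene from more RNA per cell.

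SREBPs are transcription factors made as precursors in the membrane of the endoplasmic reticulum. SCAP binds the precursor and escorts it to the Golgi in COPII-coated vesicles when sterols are scarce, and the INSIG proteins hold SCAP back when sterols are plentiful. In the Golgi the site-1 protease (MBTPS1) and then the site-2 protease (MBTPS2) cut the precursor, and the freed part enters the nucleus and switches on genes of sterol and fatty acid synthesis. INSIG1 and SREBF2 are themselves known targets of nuclear SREBPs, which makes them part of feedback loops. Messenger RNA levels do not show how much of a precursor was cut.

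Levels are FPKM, the reads or fragments of a gene per kilobase of its length, scaled to the library total, so levels of different genes in 1 library can be set side by side. Folds are plain ratios of FPKM, A375-VR over A375. The totals recovered from the values were 17811339 and 16438482 reads or fragments in the A375 and the A375-VR library. Intervals are 95% exact Clopper-Pearson intervals on recovered reads and cover counting error only. Each group has a single library, so no spread between replicates can be given and no p-value is printed. A difference is that of log2(FPKM + 1), A375-VR minus A375, and at least 1 in size counts as 2-fold apart. Of the labelled cell type's 8 markers, 3 reached an FPKM of 1 in either library, and these were SOX10, S100B and MITF. The pigment genes PMEL, MLANA, TYR, DCT and TYRP1 were below that level in both libraries. The melanocyte markers summed to 75.8 and 166 FPKM in the A375 and the A375-VR library, most of it SOX10, with 65.3 and 150 FPKM. S100B, with 3.72 and 12.6 FPKM, was also 2-fold higher in the latter, while MITF was lower there, with 6.47 and 3.47 FPKM. The part of these markers in the results below was not tested. Of 25 markers of keratinocytes, fibroblasts, endothelium, leukocytes, liver and fat cells, 5 reached an FPKM of 1, and defining markers such as PTPRC, CD3E, ALB, APOA1, ADIPOQ, TP63, KRT1 and DSG3 were listed at 0 in both libraries. Of these 5, KRT10 held most of the signal, at 44.9 and 56.0 FPKM, and KDR was the 1 that was 2-fold apart, at 0.394 and 1.84 FPKM.

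Promoter bases are shown first, because SREBF2 and INSIG1 were the 2 genes of the 7 that were at least 2-fold apart, and SREBF1 is added as the paralog of SREBF2 that was not. The bases come from the RefSeq promoter table, made on GRCh38.p14, in which all 7 genes have an entry. Each window was matched exactly to GRCh37, the build of the authors' alignment, and its coordinates there are given. Bases are printed 5′ to 3′ on the strand of the gene, and they lie upstream of the annotated gene except for a short stretch of INSIG1. Capitals mark the sterol regulatory element TCACNCCAC, its core CACNCCAC, the NF-Y box CCAAT and the E-box CACGTG, on either strand. The core is contained in the full element. The SREBF2 bases are chr22:42228859-42229108 (plus strand), the SREBF1 bases chr17:17740317-17740550 (minus strand), and the INSIG1 bases chr7:155089338-155089485 (plus strand). A further 30 bases around the E-box of INSIG1 are chr7:155089521-155089550, before the RefSeq start site but inside the gene as GENCODE annotates it.
SREBF2: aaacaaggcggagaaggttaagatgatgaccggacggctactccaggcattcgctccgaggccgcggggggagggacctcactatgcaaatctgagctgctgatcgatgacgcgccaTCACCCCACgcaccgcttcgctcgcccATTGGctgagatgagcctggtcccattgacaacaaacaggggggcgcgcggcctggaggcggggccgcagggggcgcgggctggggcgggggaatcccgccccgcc
INSIG1: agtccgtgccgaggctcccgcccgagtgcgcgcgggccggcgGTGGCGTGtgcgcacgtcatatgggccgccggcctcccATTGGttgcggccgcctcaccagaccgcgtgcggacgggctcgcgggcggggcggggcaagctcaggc
INSIG1 E-box: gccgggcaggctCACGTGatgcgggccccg
SREBF1: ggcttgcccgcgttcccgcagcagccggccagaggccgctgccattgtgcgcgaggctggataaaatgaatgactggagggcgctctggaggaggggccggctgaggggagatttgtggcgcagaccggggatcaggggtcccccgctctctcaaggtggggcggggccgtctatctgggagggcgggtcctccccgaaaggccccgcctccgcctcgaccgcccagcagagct

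Within the 250 bases before the start sites in the table, SREBF2 was the only one of the 7 genes with the full sterol regulatory element. The window of SREBF1 lies at the outer end of the gene, and no other start of SREBF1 was searched. In SREBF2 the element lies at -133 to -125 from the start site, and a CCAAT box lies at -106 to -102 on the opposite strand. The full element was present in 0.883% of the 35116 windows of this length in the table. INSIG1 had the core of the element at -208 to -201 on the opposite strand, a CCAAT box at -170 to -166 and the E-box at -55 to -50. The core was present in 4.87% of all windows, the E-box in 6.34% and the CCAAT box in 32.0%. SCAP shared the E-box, at -58 to -53, and was not 2-fold apart. The window of SCAP lies inside the gene as GENCODE annotates it. The part of any motif in the levels was not tested. The SP1 box GGGCGG, found in 42.6% of all windows, was matched 5 times in INSIG1, 3 times in SREBF1, 3 times in SCAP and 2 times in SREBF2. The windows of MBTPS1 and MBTPS2 held none of the 5 motifs. INSIG2 has 2 start sites in the table, and each of its windows held 1 SP1 box. A match is a run of letters and not a shown binding site. Of the 24 sterol genes described below, 17 had a window in the table and 0 of them held the full element there.

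**Figure D1:**
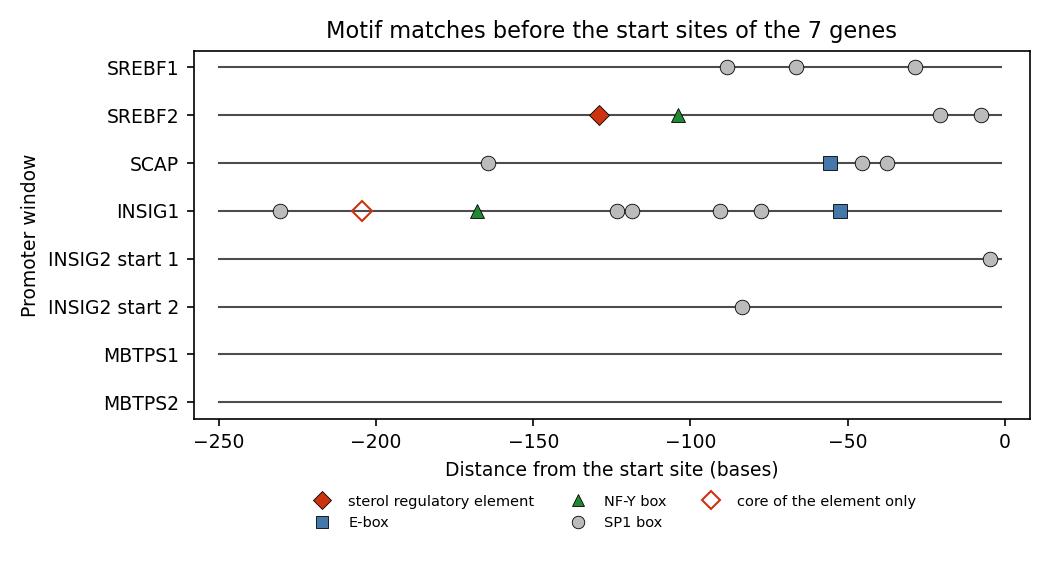
Motif matches in the 250 bases before each start site that the promoter table lists for the 7 genes, by distance from the start site in bases. Each line is a window and each symbol a match on either strand. The only full sterol regulatory element is in SREBF2, and the open symbol in INSIG1 is a match to the core alone.

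INSIG1 and SREBF2 were the 2 of the 7 genes that were past 2-fold, both with more RNA in the A375-VR library, and the other 5 lay within 2-fold. All 7 passed the filter, which keeps a gene whose higher FPKM is 1 or more. The share is 28.6% of the 7, where 3.75% of 10761 genes past the filter were 2-fold apart, 3.14% of them higher and 0.613% lower in the A375-VR library. Because the list was made with these differences known, nothing is read from that contrast. The median difference of the 7 was 0.44 and that of all genes past the filter 0.10. A difference above 0 was seen in 6 of the 7, and 6 lay above the median of all genes, where 60.3% of all genes lay above 0. Of all genes 2-fold apart 83.7% were higher in the A375-VR library, a share of 73.0% after centring on the median ratio and of 68.1% when the libraries were scaled by a trimmed mean of log ratios. Under the trimmed mean the median over all genes was -0.03 in place of 0.10, a shift that small differences are to be read against.

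**Figure D2:**
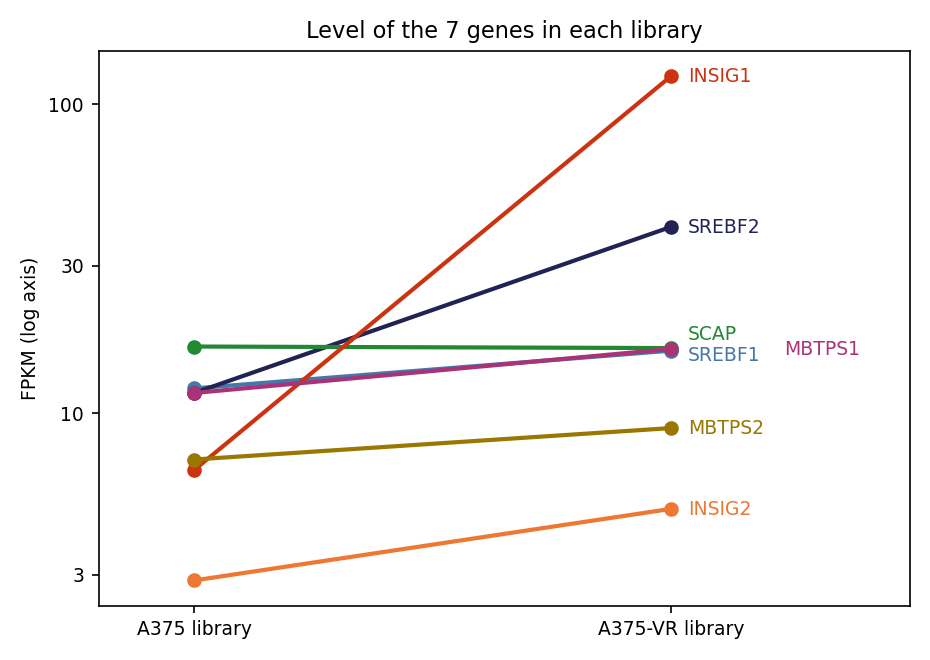
FPKM (log axis) of the 7 genes in the A375 and the A375-VR library, 1 library each, with a line joining the values of a gene. INSIG1 goes from 6.54 to 124 and SREBF2 from 11.6 to 40.1, while the ratios of the other 5 lie between 0.989 for SCAP and 1.71 for INSIG2.

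Of the retention proteins, INSIG1 had the largest difference of the 7 genes, and INSIG2 was under 2-fold. INSIG1 (Entrez 3638, chromosome 7 at 155089486 to 155101945 on the plus strand of GRCh37, 6 exon blocks) had 6.54 FPKM in the A375 library, from 425 recovered reads. In the A375-VR library it had 124 FPKM, from 7417 reads. The high library is A375-VR, and the ratio was 18.9 (17.1 to 20.9). The difference of 4.05 was number 2 in size upward among the 10761 genes past the filter. By level INSIG1 stood at number 5680 of these genes in the A375 library and at number 293 in the A375-VR library. The length recovered for INSIG1, 3650 bases, equals the summed exon length of the gene in GENCODE release 44. No other of the 7 genes had an equal length.

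INSIG2 (Entrez 51141, chromosome 2 at 118846028 to 118868573, plus strand) encodes the second retention protein and had the lowest level of the 7 in both libraries. It had 2.87 FPKM in the A375 library against 4.90 FPKM in the A375-VR library, from 101 and 159 recovered reads. It was higher in the A375-VR library by a ratio of 1.71 (1.32 to 2.21), and its difference of 0.61 was under 2-fold. This is the thinnest count of the 7 genes, and the upper end of its interval is past 2. The length recovered for INSIG2 with these reads, 1975 bases, was well below its summed exon length of 3949. Its true reads could be a multiple of those given, and its interval too wide. Within a library the ratio of INSIG1 to INSIG2 does not depend on how the library was scaled. INSIG1 was 2.28 times the level of INSIG2 in the A375 library, against 25.2 times in the A375-VR library, so the paralogs differed unequally between the libraries.

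The precursors also parted. SREBF2 (Entrez 6721, chromosome 22 at 42229109 to 42303310, plus strand), which encodes the SREBP known mainly for sterol genes, had 11.6 FPKM in the A375 library from 1564 recovered reads. It had 40.1 FPKM in the A375-VR library from 4985 reads. The ratio was 3.45 (3.26 to 3.66), and the difference of 1.70 was number 72 upward of all genes past the filter. SREBF1 (Entrez 6720, chromosome 17 at 17713713 to 17740316, minus strand) encodes the SREBPs known mainly for fatty acid genes, made from separate starts that a value per gene cannot tell apart. It had 12.03 FPKM in the A375 library against 15.9 FPKM in the A375-VR library, from 860 and 1052 recovered reads. Its ratio was 1.33 (1.21 to 1.45), and it ran from 1.20 to 1.35 under the other scalings. The length recovered for SREBF1, 4015 bases, was also well below its summed exon length of 8234. Its true reads could likewise be a multiple of those given, and its interval too wide. The paralogs did not differ beyond counting error in the A375 library, at a ratio of SREBF1 to SREBF2 of 1.03, and SREBF2 was the higher in the A375-VR library, where the ratio was 0.397. An antisense gene, SREBF2-AS1, shares 731 exonic bases with SREBF2, and RAI1, with 8.92 and 10.2 FPKM, shares 556 with SREBF1 on the opposite strand. The library kit marks strand, but no source used here says whether the counting used it.

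The escort had close values in the libraries. SCAP (Entrez 22937, chromosome 3 at 47455171 to 47518616, minus strand), which carries the sterol-sensing domain, had 16.4 FPKM in the A375 library against 16.2 FPKM in the A375-VR library, from 1883 and 1718 recovered reads. Its ratio of 0.989 (0.925 to 1.06) could not be told from 1 by counting error, and it was 0.892 with the trimmed mean and 1.00 after rescaling to a common sum. SCAP was the most abundant of the 7 in the A375 library and the third in the A375-VR library. The summed level of INSIG1 and INSIG2 was 0.573 of the level of SCAP in the A375 library and 7.91 times it in the A375-VR library. The summed level of SREBF1 and SREBF2 was 1.44 and 3.45 times that of SCAP. Both are ratios of messenger RNA, and the proteins were not measured.

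Both proteases were under 2-fold. MBTPS1 (Entrez 8720, chromosome 16 at 84087366 to 84150547, minus strand), the subtilisin-like enzyme that makes the first cut, had 11.6 FPKM in the A375 library against 16.1 FPKM in the A375-VR library. These came from 2119 and 2717 recovered reads, the ratio was 1.39 (1.31 to 1.47), and the difference of 0.44 was the median of the 7. MBTPS2 (Entrez 51360, chromosome X at 21857735 to 21903541, plus strand), the metalloprotease that cuts within the membrane, had 7.08 and 8.95 FPKM from 1125 and 1313 recovered reads. Its ratio was 1.26 (1.17 to 1.37). Both had more RNA in the A375-VR library. The ratio of MBTPS1 to MBTPS2 was 1.64 and 1.80. YY2, a gene that shares 1093 exonic bases and the strand with MBTPS2, had 2.21 and 2.26 FPKM, so some reads of this locus could be counted for either gene.

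**Figure D3:**
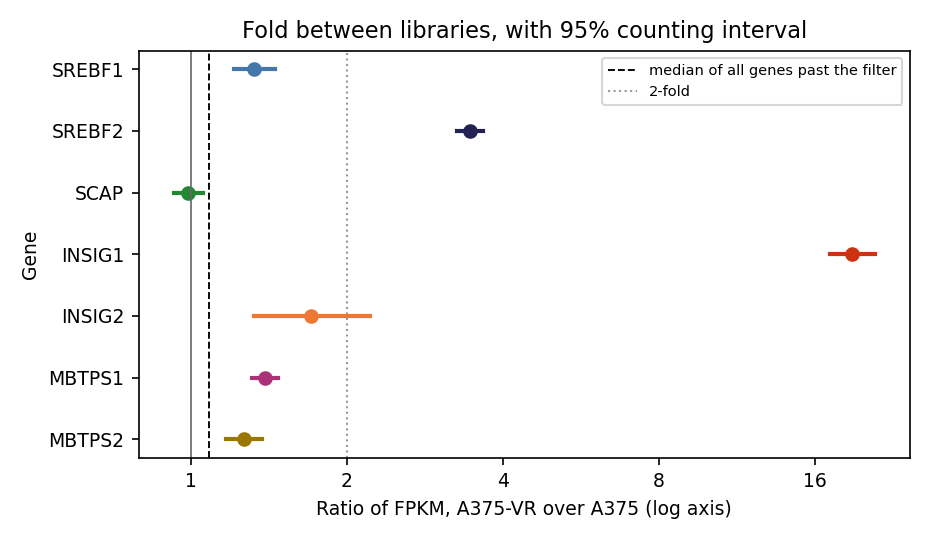
Ratio of FPKM, A375-VR over A375 (log axis), of each of the 7 genes, with its 95% interval for counting error. The dashed line is the median ratio of all genes past the filter, 1.08. INSIG1 and SREBF2 lie past the 2-fold line, SCAP lies on 1, and the other 4 lie between 1.26 and 1.71.

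The order of the 7 levels differed between the libraries. In the A375 library SCAP was highest, followed by SREBF1, MBTPS1 and SREBF2, whose levels of 12.03, 11.6 and 11.6 FPKM did not differ beyond their 95% exact Poisson intervals. MBTPS2 and INSIG1 came next with overlapping intervals (6.67 to 7.50 and 5.93 to 7.19 FPKM), and INSIG2 was lowest. In the A375-VR library INSIG1 was highest and SREBF2 second. SCAP, MBTPS1 and SREBF1 followed at 16.2, 16.1 and 15.9 FPKM with overlapping intervals, then MBTPS2 and INSIG2. The highest level was 5.72 times the lowest in the A375 library, against 25.2 times in the A375-VR library. The levels of the 7 summed to 68.2 and 226 FPKM, and INSIG1 made up 9.59% of the sum in the A375 library, against 54.7% in the A375-VR library.

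**Figure D4:**
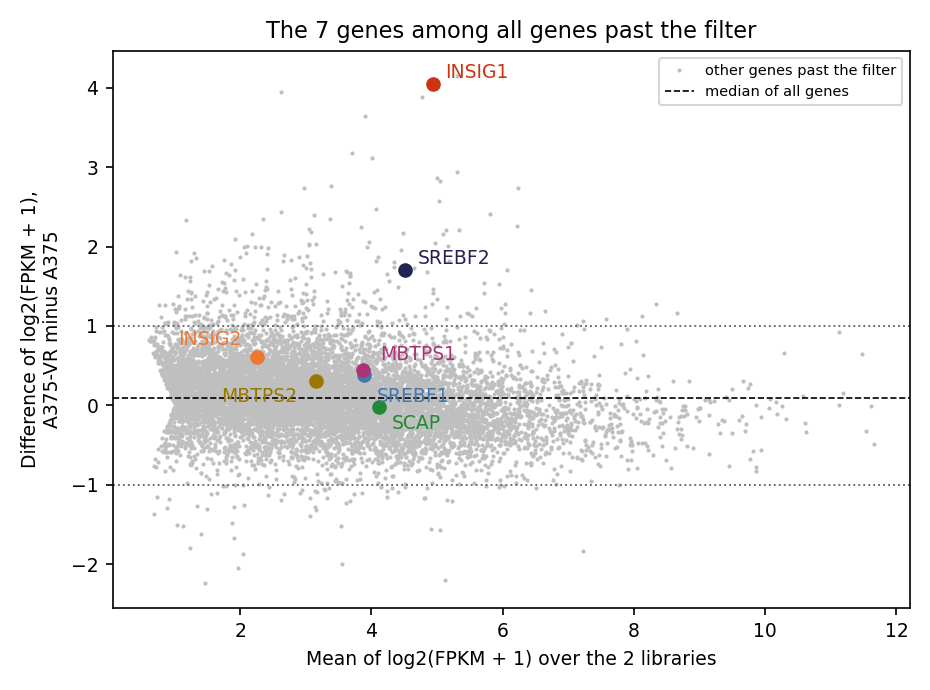
Difference of log2(FPKM + 1), A375-VR minus A375, against the mean of log2(FPKM + 1), for the 10761 genes past the filter (grey) and the 7 genes (coloured). Dotted lines mark 2-fold and the dashed line the median of all genes. INSIG1 and SREBF2 lie above the cloud at middle levels, and the other 5 lie in it.

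For each of the 7, the 2 other genes past the filter with the closest pair of log2(FPKM + 1) values were found, a likeness over 2 libraries only. The closest to INSIG1 were MSMO1, a sterol methyl oxidase, at 6.10 and 104 FPKM (distance 0.261), and HMGCS1, the HMG-CoA synthase of the mevalonate pathway, at 8.37 and 165 FPKM (distance 0.52). The closest to SREBF2 were the cytokine gene IL24 at 10.1 and 42.1 FPKM (distance 0.193) and the thiolase gene ACAT2 at 12.8 and 44.9 FPKM (distance 0.205). The other 5 lay among many genes, with nearest neighbours at distances of 0.0302 or less. Among these were IPO13 and ANKRD28 for SREBF1, KDELC2 for SCAP, ENTPD7 and TAPT1 for INSIG2, FRMD6 and TMEM60 for MBTPS1, and DIP2B and MED13 for MBTPS2.

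Most genes that nuclear SREBPs are known to switch on had more RNA in the A375-VR library. Of 24 genes of sterol synthesis and uptake, 22 passed the filter and 19 of these were 2-fold higher, with no gene 2-fold lower and a median difference of 2.38. The 2 genes of this list that differed most were HMGCS1, with a ratio of 19.7 (18.3 to 21.3), and MSMO1, with 17.1 (14.5 to 20.2). The ratio of INSIG1, 18.9 (17.1 to 20.9), lay between these, but the intervals overlap, so the order is within counting error. SREBF2, at a difference of 1.70, lay below the median of the list. Of 16 genes of fatty acid synthesis, 14 passed, 9 were 2-fold higher and none lower, with a median of 1.13. Over all genes past the filter 3.14% were 2-fold higher, and both lists were chosen with earlier results of these data known. ACSS2, the acetyl-CoA synthetase of the cytosol, had 3.35 and 38.5 FPKM, and the desaturase gene SCD had 28.0 and 193 FPKM. SREBF1, at 0.38, lay below that median too.

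In 5 lists of genes that work beside the machinery (coat, turnover, traffic, nuclear partners and other protease substrates), 0 or 1 gene per list was 2-fold apart, where 3.75% of all genes past the filter were. Of 15 genes of the COPII coat and ER exit, 13 passed and none was 2-fold apart, with a median of 0.23 and 10 above 0. Over all genes past the filter 60.3% were above 0, and the median was 0.10. The largest differences were those of SEC24D, a cargo adaptor, at 3.98 and 7.56 FPKM, and SEC23B, its coat partner, at 24.0 and 36.2 FPKM. Among 16 genes for turnover of INSIG, SCAP, SREBP and HMG-CoA reductase the median was 0.03, a value that was -0.09 with the trimmed mean, and 1 gene was 2-fold higher. That gene is RNF145, an ER ubiquitin ligase that acts on SCAP, with 29.1 and 65.9 FPKM and a ratio of 2.27 (2.16 to 2.38). SYVN1, a ubiquitin ligase of ER-associated degradation, had 8.19 and 11.98 FPKM.

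For SCAP-SREBP traffic and delivery of cholesterol to the ER 12 genes passed the filter. Of these 10 were above 0, against 60.3% of all genes past the filter, and 1 was 2-fold higher, with a median of 0.21. GRAMD1B, which moves cholesterol from the plasma membrane to the ER, had 3.41 and 13.6 FPKM, a ratio of 3.99 (3.71 to 4.30). NPC1, which lets cholesterol out of lysosomes, had 4.04 and 8.67 FPKM, a ratio of 2.14 and a difference of 0.94. Of the 10 nuclear partners of SREBPs, 6 were below 0 and 4 above, with a median of -0.03 and none 2-fold apart. The NF-Y subunit genes NFYB and NFYA differed most, at 9.30 and 6.97 FPKM and at 14.5 and 12.004 FPKM. The other substrates of the site-1 and site-2 proteases are membrane-bound transcription factors and GNPTAB. Of these 6 of 6 past the filter were above 0, against 60.3% of all genes, with a median of 0.50 and none 2-fold apart. CREB3L2 had 3.45 and 7.59 FPKM, a plain ratio of 2.20 (1.78 to 2.72) and a difference of 0.95. CREB3L4 had 2.94 and 5.09 FPKM.

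**Figure D5:**
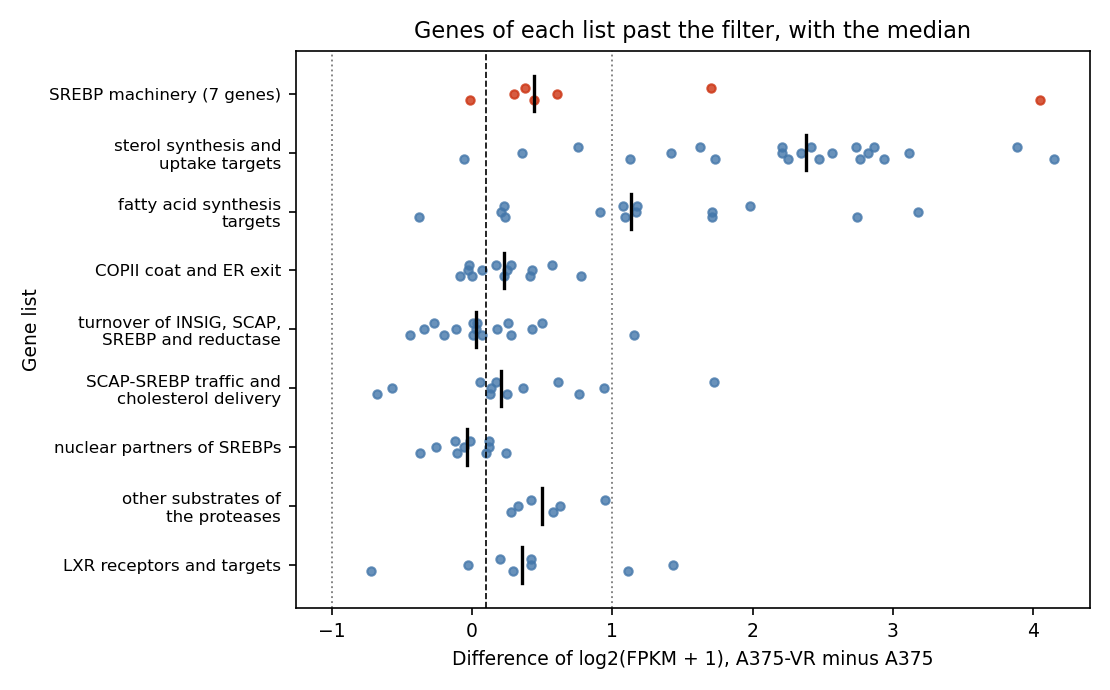
Difference of log2(FPKM + 1), A375-VR minus A375, of each gene past the filter in the 7-gene list (red) and in 8 lists of genes around it (blue), with the median of each list as a bar. The dashed line is the median of all genes and dotted lines mark 2-fold. The bars of the sterol and fatty acid targets lie at 2.38 and 1.13 and those of the other lists at 0.50 or below.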

How the data were processed

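The deposited FPKM were made by the authors from stranded mRNA libraries read as pairs of 150 bp, aligned with TopHat 1.3.3 to GRCh37, per the series design text. No source used here names the counter, the annotation or the use of strand. The files list 20344 genes, and zeros are kept. A gene was kept when its higher FPKM was 1 or more. Reads were recovered as the smallest whole numbers that fit both FPKM of a gene and a whole gene length, so true counts can be multiples and intervals too wide. The ratio of the totals is fixed by the values. Their common factor was the one of 12 under which most gene lengths equal GENCODE exon lengths (15.9% of 1500 genes, against 10.7% for the next). FPKM of a gene depends on all others through the library total. Members and lists were chosen with earlier results of these data known. Text names all members, the 2 largest differences of each list and the 2 nearest genes of each member, apart from some that are not reported here. Alternatives were 3 scalings, a pseudocount of 0.1 and other filters. Calls, the ratio of the totals, the recovery of reads and the interval formula were tried on simulated counts. There the common factor was set in advance and the intervals used the true counts. The choice of that factor and intervals on recovered reads were thus not tested. Protein sequences of the paralogs were not analysed here. Python 3.11.15, SciPy 1.17.1 and pandas 2.3.3 were used.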

Additional observations from a re-analysis of the deposited data

How the results depend on the processing

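The count of 2 members at least 2-fold apart was the same under all 6 alternatives. INSIG2 did not pass the filter at FPKM 5. The median difference of the members was 0.33 after centring on the median ratio and 0.30 with the trimmed mean of log ratios. After centring, the folds were 3.19 for SREBF2, 0.913 for SCAP and 1.28 for MBTPS1. With the trimmed mean they were 1.20 for SREBF1, 3.11 for SREBF2, 0.892 for SCAP, 17.1 for INSIG1, 1.25 for MBTPS1 and 1.14 for MBTPS2. The ratio of FPKM + 1 was 3.26 for SREBF2 and 16.5 for INSIG1. All genes 2-fold lower numbered 101 after centring, 116 with the trimmed mean, 104 after rescaling to a common sum and 140 with a pseudocount of 0.1, against 66. Those 2-fold higher numbered 624 after rescaling and 689 with the smaller pseudocount, against 338. Rescaling and the smaller pseudocount each gave 2 genes 2-fold higher in the traffic list and 1 among the protease substrates. The LXR list had 1 with the trimmed mean and 0 with the filter at FPKM 5. A looser motif, the core alone, matched 2 of the 7 genes instead of 1. The rescaling raised the FPKM sums of 265149 (A375) and 260897 (A375-VR) to 1000000 each and kept the pseudocount of 1. It thus made the pseudocount smaller beside the levels, as well as scaling the libraries alike. For the shifts above the cause was not tested. With 1 library per group, no library could be left out and no paired analysis was possible because no group has a second replicate. INSIG2, with 101 and 159 reads, is the member most limited by depth.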

Other observations

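The liver X receptors (LXR) sense oxidised sterols and are known to switch on sterol export genes and SREBF1. Of 12 genes of these receptors and their targets, 8 passed the filter and 6 of these were above 0, where 60.3% of all genes past the filter were. The receptor genes of the list were all among those above 0. Targets past the filter lay on both sides of 0, and the genes that did not pass were all targets. These were ABCA1, at 0.178 and 0.172 FPKM, and ABCG1, ABCG5 and ABCG8, all below an FPKM of 1 in both libraries. The median difference of the 8 was 0.36, against 0.10 for all genes past the filter. On the log2(FPKM + 1) scale 2 genes were past 2-fold, both toward the A375-VR library, where 3.75% of all genes past the filter were 2-fold apart. The 2 were APOE, a lipid carrier, with 1.10 and 4.66 FPKM from 43 and 168 recovered reads, and the LXR target SMPDL3A, with 1.31 and 4.01 FPKM from 55 and 155 recovered reads. Their ratios were 4.23 (3.01 to 6.06) and 3.05 (2.23 to 4.23). MYLIP, an LXR target that encodes a ubiquitin ligase for lipoprotein receptors, went the other way, with 2.87 and 1.34 FPKM, a ratio of 0.468 (0.346 to 0.628) and a difference of -0.72. MYLIP and the targets that did not pass were named after their values were seen.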
